A study of Drosophila melanogaster with 6 samples.

Results

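The proteasome subunit genes of Drosophila melanogaster were followed in 6 RNA libraries labelled as intestines or fat bodies. Members were the genes whose symbol begins with Prosalpha, Prosbeta, Rpn or Rpt followed by a digit. The rule found 48 genes among the 17411 in the count files, and no measured value entered it. They divide into 32 canonical subunit genes and 16 paralogues whose symbols carry the suffix R or T. Of the canonical genes, 14 encode the core particle and 18 the regulatory particle.

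The study set RNAi against the splicing factor gene 9G8 (gene symbol x16) against a control, with 3 libraries per group. The 9G8-RNAi libraries came from flies of the genotype Mex-Gal4>9G8RNAi, the GFP-dsRNA libraries from flies of the genotype Mex-Gal4>GFPdsRNA, and the replicates are A, B and D in each. Both groups thus carry the driver Mex-Gal4, which is active in the absorptive enterocytes of the midgut, and both express a double-stranded RNA. The 9G8-RNAi samples are labelled intestines and the controls fat bodies, and the design text names a yolk driver where the genotypes name Mex-Gal4. Age and sex are not given, and no label tells whether a group's 3 samples are separate sets of flies, so the p-values here cover only how far these samples spread, which may be technical variation.

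The proteasome is the protease of the cytosol and nucleus that degrades proteins tagged with ubiquitin. Its core particle is a barrel built of rings of alpha and beta subunits, with the proteolytic sites inside, on 3 of the beta subunits. The regulatory particle caps the barrel. Its base holds a ring of ATPases that unfold and thread the substrate, and its lid removes the ubiquitin chain. Canonical subunits are used in all cell types, and in Drosophila many subunits also have duplicated genes that are known for expression in the testis.

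Total counts ranged from 26216430 to 66562756 per library. The scaling factors of the trimmed mean of M-values (TMM), which correct library sizes for composition, ran from 0.635 in GFP-dsRNA replicate D to 1.68 in GFP-dsRNA replicate A, so a level in either library depends strongly on the scale. All 8 enterocyte markers were detected in each library. Together they took 84009 to 157923 CPM (read counts scaled to a common library size, here the total count) in 9G8-RNAi and 64680 to 197177 CPM in GFP-dsRNA. The fat body list of 8 genes summed to 136 to 506 CPM in 9G8-RNAi and 116 to 628 CPM in GFP-dsRNA. Of this list, Lsp2 and Fbp1 were at 0.102 and 0.168 CPM or less in each library. The others, fon, apolpp, Tep4, Yp1, Yp2 and Yp3, were detected in each, Yp3 at 34.7 to 220 CPM. The enterocyte sums were far above the fat body sums in both groups, which goes against controls made of fat body alone. The female germ line markers found in the files summed to 1.02 CPM or less. GFP-dsRNA replicate A stood apart in the 10 muscle markers, with 6230 CPM against at most 521 CPM in the other 5 libraries. The target x16 measured 6.36, 11.5 and 6.59 CPM in 9G8-RNAi and 8.29, 7.14 and 20.02 CPM in GFP-dsRNA (libraries A, B and D, TMM-scaled). These groups overlapped (log2 fold change -0.53 ± 0.46 SE, edgeR adjusted p 0.918; exact two-sided permutation p 0.5, where 3 against 3 cannot go below 0.1), so a fall of the target was not detectable. Without GFP-dsRNA replicate D its log2 fold change was 0.18.

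Canonical subunit genes were read at moderate and unequal levels. To compare genes, TMM-scaled CPM were divided by the summed exon length in kilobases. On this scale the core particle genes averaged over all libraries between 31.02 (Prosalpha6) and 228 CPM per kilobase (Prosbeta1), with a median of 65.1. The regulatory particle genes lay lower, between 9.18 (Rpn2) and 35.6 CPM per kilobase (Rpt6), with a median of 20.7. The lowest regulatory genes were also the longest, Rpn2 with 3412 and Rpn1 with 3041 bases of exon. In all, the members took 0.134%, 0.189% and 0.155% of the counts in libraries A, B and D of 9G8-RNAi and 0.197%, 0.202% and 0.111% in those of GFP-dsRNA.

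**Figure D1:**
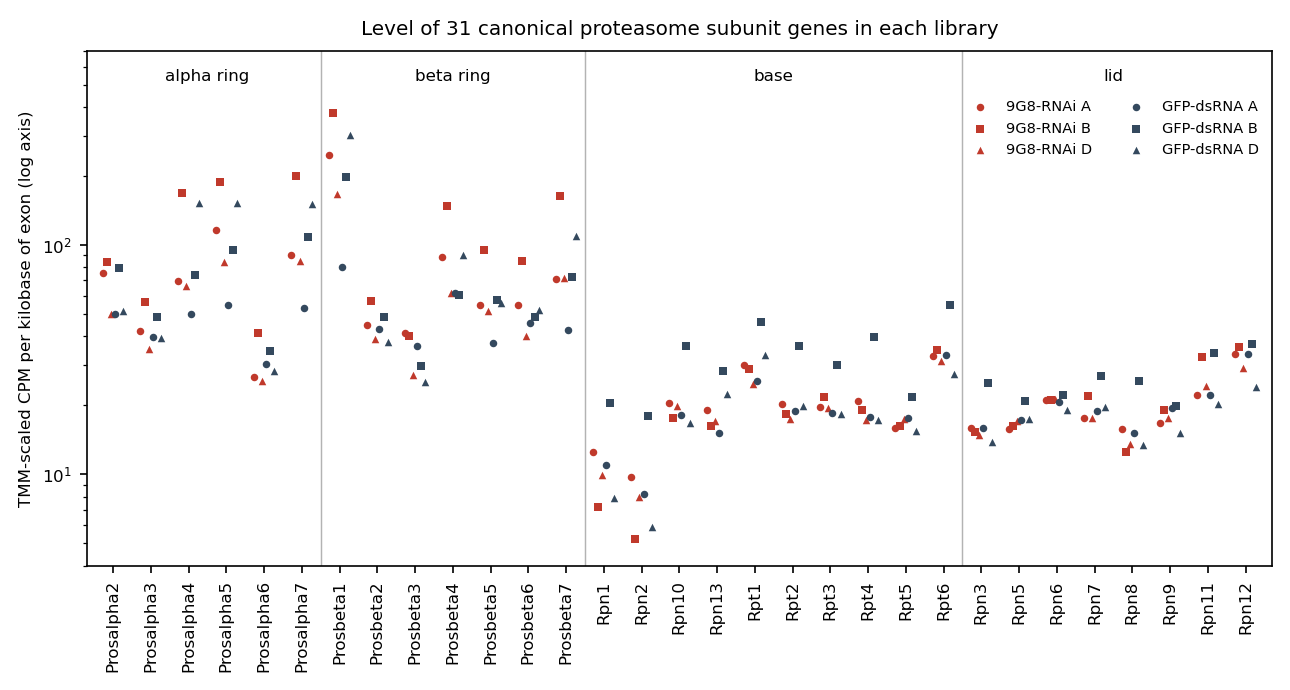
Level of the 31 tested canonical subunit genes in each library, as TMM-scaled CPM per kilobase of exon on a log axis. Points are single libraries, 9G8-RNAi in red and GFP-dsRNA in dark blue, with a marker shape per replicate letter. Core particle genes lie above most regulatory particle genes, and Prosbeta1 is highest, with 80.5 to 377 CPM per kilobase.

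No member passed the test between 9G8-RNAi and GFP-dsRNA. edgeR's quasi-likelihood test with Benjamini-Hochberg adjustment over 9285 genes called 0 of the 32 members that passed the low-count filter, where 0.118% of all tested genes were called (0.0862% as higher and 0.0323% as lower in 9G8-RNAi). Those 32 are 31 canonical genes and the paralogue Rpn13R. The smallest adjusted p among them was 0.918, and 0 of them had an unadjusted p under 0.05, where 4.53% of all tested genes did. DESeq2 and limma-voom also called 0 members, where they called 104 and 2 of the 9285 tested genes. With shares this small, 32 members without a call are no result about the members. In bulk RNA, fewer cells of a type and less RNA per cell cannot be told apart.

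The point estimates separated by particle without any of them passing. All 13 tested core genes had a log2 fold change (9G8-RNAi minus GFP-dsRNA) above 0, with a median of 0.27 and a range of 0.002 to 0.49. Of the 18 regulatory genes 15 lay below 0, with a median of -0.24 and a range of -0.49 to 0.055. Over all tested genes 44.3% lay above 0 and 55.7% below it, and the median was -0.065. Standard errors of single members ran from 0.26 to 0.54, as large as most of these differences. Both medians rest on single libraries. Without 9G8-RNAi replicate B the core median was -0.035, with 5 of 13 genes above 0, and without GFP-dsRNA replicate A it was 0.085. Without 9G8-RNAi replicate D it was 0.49, and without GFP-dsRNA replicate D 0.60. Without GFP-dsRNA replicate B the regulatory median was 0.063, with 12 of 18 genes above 0. With total counts only the median over all tested genes was -0.33 and the core median was 0.086, with 8 of 13 above 0, while the regulatory median was -0.51 with 0 of 18 above 0.

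Among the catalytic subunits, Prosbeta1 (FBgn0010590, chromosome arm 2R from 16013805 to 16014787, minus strand, BDGP6) carries the caspase-like site. It measured 211, 321 and 142 CPM in libraries A, B and D of 9G8-RNAi, against 68.6, 169 and 256 CPM in those of GFP-dsRNA, an order kept for all values that follow. The groups overlapped, with 9G8-RNAi replicate B highest and GFP-dsRNA replicate A lowest of the 6. Its log2 fold change was 0.45 ± 0.53 (SE), its 95% interval ran from -0.78 to 1.68, and the edgeR adjusted p was 0.919. It was 0.050 without GFP-dsRNA replicate A, 0.10 without 9G8-RNAi replicate B, 0.69 without 9G8-RNAi replicate D and 1.02 without GFP-dsRNA replicate D.

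Prosbeta2 (FBgn0023174, 3L from 14999951 to 15001319, plus strand), with the trypsin-like site, was steadier on the TMM scale. It measured 46.5, 59.2 and 40.2 CPM in 9G8-RNAi, against 44.6, 50.1 and 39.0 CPM in GFP-dsRNA. The log2 fold change was 0.13 ± 0.29 (SE), with a 95% interval of -0.55 to 0.80. For Prosbeta5 (FBgn0029134, 2R from 10819978 to 10821178, plus strand), with the chymotrypsin-like site, the values were 62.1, 108 and 58.7 CPM in 9G8-RNAi, against 42.5, 65.8 and 63.7 CPM in GFP-dsRNA. Only 9G8-RNAi replicate B lay above the range of the controls, and the log2 fold change was 0.42 ± 0.37 (SE), with a 95% interval of -0.43 to 1.26. The 3 catalytic genes thus spanned different ranges in the same libraries: the highest over the lowest library was 4.68 for Prosbeta1, 1.52 for Prosbeta2 and 2.55 for Prosbeta5. That order depends on the scale, since with total counts the ratios were 2.36, 3.02 and 2.27.

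Of the other beta ring genes, whose products are structural, Prosbeta4 (FBgn0032596, 2L from 16731180 to 16732133, minus strand) had the largest estimate. It measured 72.5, 120.2 and 50.6 CPM in 9G8-RNAi, against 50.4, 49.5 and 73.9 CPM in GFP-dsRNA. Its log2 fold change was 0.49 ± 0.40 (SE; edgeR adjusted p 0.918). Prosbeta3 had the lowest mean level per kilobase of the ring, at 33.3, and measured 37.6, 36.7 and 24.7 CPM in 9G8-RNAi, against 33.2, 27.1 and 23.1 CPM in GFP-dsRNA. It was the core gene whose highest library was not 9G8-RNAi replicate B. Prosbeta6 and Prosbeta7 had log2 fold changes of 0.30 ± 0.35 and 0.45 ± 0.49 (SE).

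In the alpha ring, which forms the gate of the barrel, Prosalpha5 (FBgn0016697, 2R from 17412767 to 17413769, plus strand) was both highest per kilobase and largest in estimate. It measured 109.6, 178 and 79.9 CPM in 9G8-RNAi, against 51.8, 90.1 and 143 CPM in GFP-dsRNA, for a log2 fold change of 0.37 ± 0.47 (SE; edgeR adjusted p 0.919). Prosalpha6 (FBgn0250843, 2L from 10221351 to 10222546, plus strand) was at the other end on both counts. Its values were 28.4, 44.1 and 27.2 CPM in 9G8-RNAi, against 32.3, 37.0 and 30.3 CPM in GFP-dsRNA, and its log2 fold change was 0.002 ± 0.30 (SE). Prosalpha2 measured 69.3, 77.7 and 46.1 CPM in 9G8-RNAi, against 45.8, 72.7 and 47.6 CPM in GFP-dsRNA. It and Prosalpha3, Prosalpha4 and Prosalpha7 lay between, with log2 fold changes of 0.071 to 0.27.

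The canonical gene Prosalpha1 (FBgn0263121, 2R from 7827303 to 7828678, minus strand) had almost no reads. It counted 2, 14 and 2 reads in 9G8-RNAi and 2, 6 and 0 in GFP-dsRNA, 26 in all, and did not pass the filter. No other canonical subunit gene had fewer than 409 reads in any library. Its paralogue Prosalpha1R (FBgn0050382, 2R from 7830413 to 7831771, minus strand) begins 1734 bases further along the arm and counted 3, 11 and 14 reads in 9G8-RNAi and 11, 2 and 3 in GFP-dsRNA. Exons 2, 3 and 4 have the same lengths in both genes, 100, 177 and 580 bases, and lie at a constant distance of 3110 bases. How reads that fit several places were counted is not given in the sources used here and the 2 sequences were not compared, so the counts of this pair are uncertain and are not read as levels. The exons of Prosalpha1 overlap by 17 bases those of phr, a DNA photolyase gene on the other strand. phr measured 3.18, 3.29 and 3.02 CPM in 9G8-RNAi, against 0.431, 0.418 and 0.247 CPM in GFP-dsRNA. These groups did not overlap, and the log2 fold change of phr was 3.07 ± 0.38 (SE; edgeR adjusted p 0.0382). Its size stayed between 2.75 and 3.19 under 16 alternatives, but it passed the threshold in 8 of them, with adjusted p up to 0.341. Leaving out any single library except GFP-dsRNA replicate A ended the call, as did limma-voom, total counts only and the replicate letters as a block. The neighbouring gene CG18853 overlaps Prosalpha1R by 17 bases in the same way and counted 19 reads or fewer in each library. Its last exon has 386 bases, like that of phr. The sequences of phr and CG18853 were not compared either, so the counts and the call of phr carry the same uncertainty about reads that fit several places.

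The base of the regulatory particle holds 6 ATPases, 2 large scaffolds and 2 ubiquitin receptors. All 10 genes had estimates below 0, with a median log2 fold change of -0.33. The scaffold gene Rpn2 (FBgn0028692, 3R from 29153524 to 29157255, plus strand) had the lowest, -0.49 ± 0.46 (SE), with a 95% interval of -1.55 to 0.57 (edgeR adjusted p 0.918). It measured 33.3, 17.8 and 27.2 CPM in 9G8-RNAi, against 28.0, 61.5 and 20.2 CPM in GFP-dsRNA. GFP-dsRNA replicate B alone lay above the 9G8-RNAi range, and without it the log2 fold change was 0.12. The other scaffold gene, Rpn1, showed the same order, with 38.0, 21.9 and 30.2 CPM in 9G8-RNAi, against 33.5, 62.1 and 24.0 CPM in GFP-dsRNA.

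Rpt3 (FBgn0028686, X from 11125101 to 11126785, plus strand) had the estimate nearest 0 in the base, -0.14 ± 0.30 (SE). It measured 30.6, 33.6 and 30.1 CPM in 9G8-RNAi, against 28.9, 46.4 and 28.4 CPM in GFP-dsRNA. Rpt6 was the highest base gene per kilobase, with 32.7, 34.8 and 31.1 CPM per kilobase in 9G8-RNAi, against 33.1, 54.7 and 27.3 in GFP-dsRNA. In both, GFP-dsRNA replicate B was the highest library. Rpt2 measured 33.0, 29.7 and 28.3 CPM in 9G8-RNAi, against 30.7, 59.0 and 32.4 CPM in GFP-dsRNA. Rpt4 measured 30.7, 28.0 and 25.3 CPM, against 26.02, 58.1 and 25.2 CPM. Rpt5 was more even, with 25.8, 26.3 and 28.4 CPM in 9G8-RNAi, against 28.5, 35.4 and 25.2 CPM in GFP-dsRNA. The ubiquitin receptor genes Rpn10 and Rpn13 had log2 fold changes of -0.30 ± 0.36 and -0.33 ± 0.31 (SE).

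The lid genes were the most even on the TMM scale, where their highest library was 1.53 times the lowest in the median, against 2.43 for the core. With total counts the order turned round, with 3.04 for the lid and 2.36 for the core. Rpn6, whose product bridges lid, base and core, measured 41.0, 40.9 and 41.4 CPM in 9G8-RNAi, against 40.3, 43.1 and 37.2 CPM in GFP-dsRNA. Its highest library was 1.16 times its lowest, the smallest ratio of the 31 tested canonical genes, where the median of all tested genes was 2.59. With total counts the ratio of Rpn6 was 2.86. Rpn11, the deubiquitinase of the lid, measured 26.8, 39.1 and 29.3 CPM in 9G8-RNAi, against 26.9, 40.7 and 24.4 CPM in GFP-dsRNA, so that replicate B was the highest in both groups. Rpn8 (FBgn0002787, 2R from 24400028 to 24404527, plus strand), the partner of Rpn11, had the lowest estimate, -0.37 ± 0.32 (SE), with 24.0, 19.2 and 20.8 CPM in 9G8-RNAi, against 23.2, 38.9 and 20.5 CPM in GFP-dsRNA. Rpn12 (FBgn0028693, 3L from 16583028 to 16584022, plus strand) had the highest, 0.055 ± 0.29 (SE), with 33.1, 35.6 and 28.9 CPM in 9G8-RNAi, against 33.3, 36.7 and 23.9 CPM in GFP-dsRNA. Rpn5 was the 1 canonical gene of 31 (3.23%) whose groups did not overlap, against 8.61% of all tested genes. It measured 29.9, 30.9 and 32.4 CPM in 9G8-RNAi, against 32.6, 39.6 and 33.2 CPM in GFP-dsRNA, with a log2 fold change of -0.18 ± 0.26 (SE; edgeR adjusted p 0.921). With total counts its groups overlapped, as did those of the other canonical genes, where 4.08% of all tested genes did not overlap. Rpn7 measured 24.6, 30.4 and 24.6 CPM in 9G8-RNAi, against 26.2, 37.4 and 27.4 CPM in GFP-dsRNA. Rpn9 measured 28.2, 32.0 and 29.6 CPM, against 32.6, 33.4 and 25.3 CPM. Rpn3, Rpn7 and Rpn9, structural genes of the lid, had log2 fold changes of -0.25, -0.19 and -0.025.

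**Figure D2:**
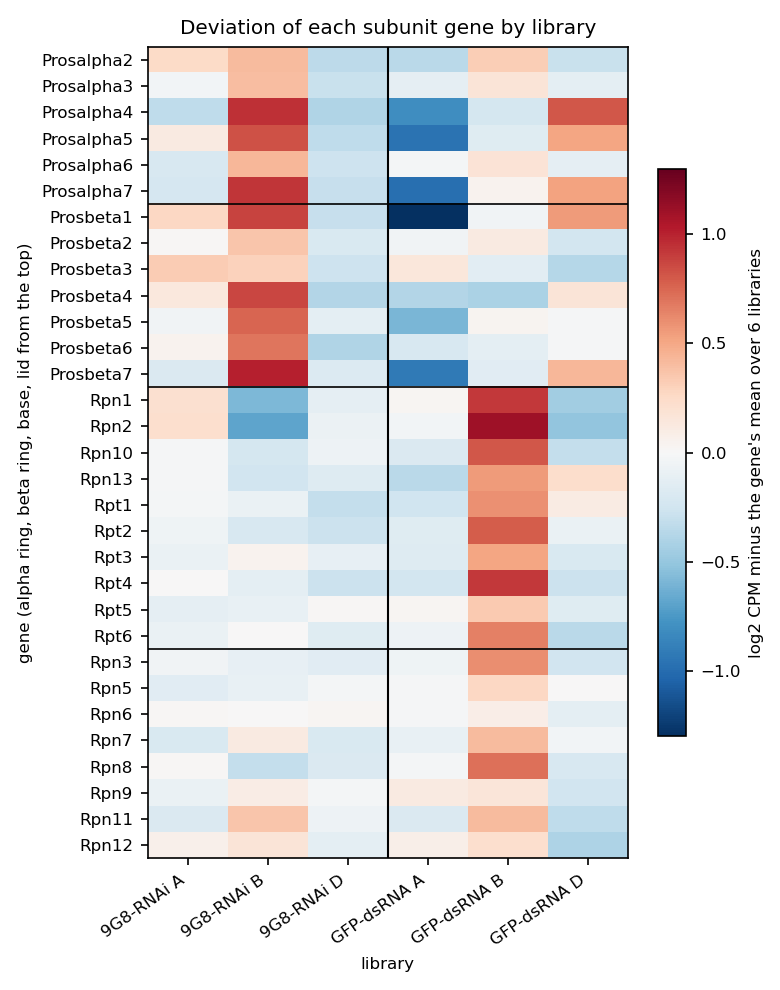
Log2 TMM-scaled CPM of each tested canonical gene minus its mean over the 6 libraries. Rows are genes, grouped from the top as alpha ring, beta ring, base and lid, and columns are libraries, with 9G8-RNAi left of the vertical line. The core rows are reddest in 9G8-RNAi replicate B and the regulatory rows in GFP-dsRNA replicate B, while the other libraries of each group are paler or blue.

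The particles were highest in different libraries. In TMM-scaled CPM, 12 of the 13 core genes were highest in 9G8-RNAi replicate B, where 15.4% of all tested genes were highest. All 18 regulatory genes were highest in GFP-dsRNA replicate B, where 23.9% of all tested genes were highest. With total counts, 7 core genes were highest in 9G8-RNAi replicate B and 5 in GFP-dsRNA replicate A, where 8.15% and 65.2% of all tested genes were highest. On that scale the regulatory genes were highest in GFP-dsRNA replicate B (11 genes, against 12.96% of all tested genes) or replicate A (7 genes). On that scale, too, 17 of the 18 regulatory genes were lowest in GFP-dsRNA replicate D, where 54.7% of all tested genes were lowest. Muscle markers were high in GFP-dsRNA replicate A alone, and their part in these orders was not tested.

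Within the core a further division appeared, noticed after the values were seen. Prosalpha4, Prosalpha5, Prosalpha7, Prosbeta1, Prosbeta4 and Prosbeta7 had 9G8-RNAi replicate B and GFP-dsRNA replicate D as their 2 highest libraries, on the TMM scale. This holds for 6 of 13 core genes, for 0 of 18 regulatory genes and for 11.6% of all tested genes. Prosalpha4 measured 81.5, 197 and 77.9 CPM in 9G8-RNAi, against 58.6, 87.3 and 179 CPM in GFP-dsRNA. Prosalpha7 measured 88.2, 195 and 83.4 CPM, against 51.7, 105 and 147 CPM, and Prosbeta7 86.1, 198 and 86.8 CPM, against 51.8, 88.5 and 132 CPM. In each of the 3 both groups held a low and a high library, and the groups overlapped. Prosalpha3, an alpha ring gene outside this division, measured 40.9, 55.0 and 34.2 CPM in 9G8-RNAi, against 38.4, 47.1 and 38.3 CPM in GFP-dsRNA. With total counts the 2 libraries were the highest for 1 of the 13 core genes, Prosalpha4, and for 1.12% of all tested genes.

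The balance of the particles was measured within each library. A scaling factor common to the library cancels there, but a trend with exon length does not. The median core level per kilobase was 3.57, 5.10 and 2.94 times the median regulatory level in libraries A, B and D of 9G8-RNAi and 2.48, 2.21 and 3.12 times in those of GFP-dsRNA. The lowest 9G8-RNAi library lay below the highest GFP-dsRNA library, so the groups overlapped. On the log2 scale the ratio averaged 1.92 ± 0.40 in 9G8-RNAi and 1.37 ± 0.26 in GFP-dsRNA (SD, n = 3 each), a difference of 0.55, given as a description. Leaving out single libraries gave differences of 0.33 (without 9G8-RNAi replicate B) to 0.73 (without 9G8-RNAi replicate D). The ratio was not computed with the trend with exon length removed.

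**Figure D3:**
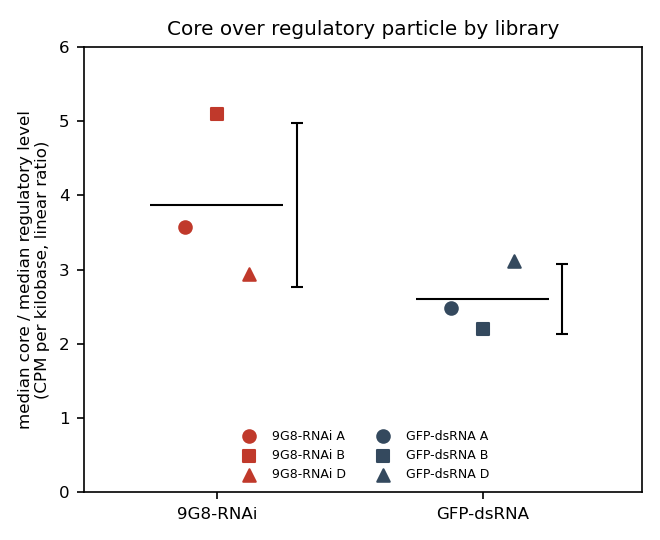
Median level per kilobase of the 13 tested core genes over that of the 18 regulatory genes, by library. Points are libraries, horizontal bars are group means and error bars are SD (n = 3 each). 9G8-RNAi spans 2.94 to 5.10 and GFP-dsRNA 2.21 to 3.12, so the ranges overlap.

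Exon length differed between the particles and moved with the fold change. Core genes had a median exon length of 973 bases and regulatory genes of 1589, against 2043 over all tested genes. Over the 9285 tested genes Spearman's rho between exon length and log2 fold change was -0.48, a description, since genes are no independent replicates. Across the 31 canonical genes it was -0.80, and within the 13 core and the 18 regulatory genes -0.33 in each. With the trend with exon length removed from each library, an alternative chosen after seeing the data, the core median was 0.0084 with 7 of 13 genes above 0, and the regulatory median was -0.29 with 17 of 18 below 0. The 2 regulatory genes with exons as short as those of the core, Rpn12 (995 bases) and Rpn11 (1208 bases), had log2 fold changes of 0.055 and 0.051. The other regulatory gene above 0, Rpn6 at 0.030, has 1945 bases of exon, more than any regulatory gene but Rpn2 and Rpn1. Core genes near the length of Rpn12 and Rpn11 spread more widely. Prosbeta2 (1034 bases), Prosalpha6 (1070) and Prosalpha4 (1176) had log2 fold changes of 0.13, 0.002 and 0.14. Prosbeta5 (1139) and Prosbeta7 (1215) had 0.42 and 0.45. The part of exon length in the difference between the particles was not tested.

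**Figure D4:**
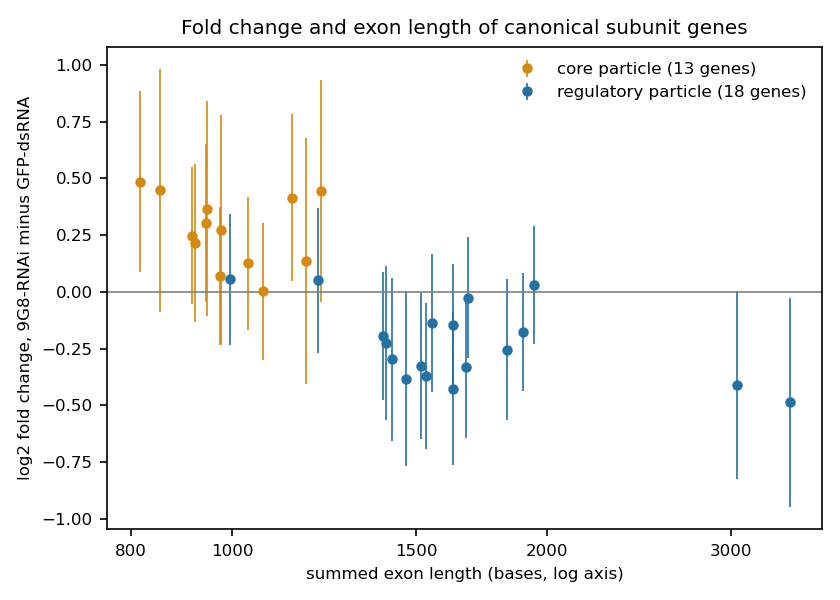
Log2 fold change (9G8-RNAi minus GFP-dsRNA, bars are SE) of the 31 tested canonical genes against summed exon length in bases on a log axis. Core genes are orange and regulatory genes blue. Core genes lie at 815 to 1215 bases and above 0, and most regulatory genes at over 1208 bases and below 0.

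Apart from Prosalpha1R, whose counts are not read as levels, the paralogues with suffix R or T were nearly silent in both groups. Of the 16, 6 have no intron, and the parents of 5 of these 6 have introns. The reads of all 16 together numbered 11, 32 and 110 in libraries A, B and D of 9G8-RNAi and 85, 105 and 11 in those of GFP-dsRNA. This was 0.0279% to 0.106% of all member reads in 9G8-RNAi and 0.0311% to 0.165% in GFP-dsRNA. Without Prosalpha1R the reads numbered 8, 21 and 96 in 9G8-RNAi and 74, 103 and 8 in GFP-dsRNA. Of the 16, 11 stayed under 10 reads in every library, and the highest single value was 1.49 CPM of total counts. The limit set for a gene without reads, a count of 3, corresponds to 0.0451 to 0.114 CPM, for counting error only.

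Leaving Prosalpha1R aside, the paralogues had between 0.0122% (Prosbeta4R1) and 1.09% (Rpn13R) of the reads of their parents. Rpn13R (FBgn0029745, X from 5131898 to 5132985, plus strand) counted 1, 6 and 28 reads in 9G8-RNAi, against 10, 45 and 1 in GFP-dsRNA, while its parent Rpn13 counted 801, 985 and 2213, against 1113, 2476 and 762. Its groups overlapped, its log2 fold change was -0.95 ± 0.97 (SE; edgeR adjusted p 0.918), and without GFP-dsRNA replicate B the log2 fold change was 0.44. Rpt3R counted 4, 6 and 15 reads in 9G8-RNAi, against 39, 9 and 1 in GFP-dsRNA, beside 770 to 2339 and 576 to 2443 reads of Rpt3. Its exons share 20 bases with those of Alg12 on the opposite strand. Alg12 counted 145, 277 and 644 reads in 9G8-RNAi, against 399, 393 and 158 in GFP-dsRNA. Prosbeta2R2, paralogue of a catalytic subunit gene, counted 0, 1 and 6 reads in 9G8-RNAi, against 2, 12 and 0 in GFP-dsRNA, beside 1169 to 3120 and 791 to 2636 reads of Prosbeta2. Prosbeta5R2 counted 0, 0 and 12 reads in 9G8-RNAi, against 5, 6 and 0 in GFP-dsRNA, beside 1562 to 4563 and 1291 to 3462 reads of Prosbeta5. Prosbeta4R2, whose exons share 69 bases with those of the odorant receptor gene Or23a on the same strand, counted 0, 0 and 3 reads in 9G8-RNAi, against 3, 3 and 0 in GFP-dsRNA.

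The 3 libraries with most paralogue reads were also those with fewest genes at 0: 2079 in 9G8-RNAi replicate D and 3025 and 2342 in GFP-dsRNA replicates A and B, against 5163 or more in the other 3. Testis and male germ line markers moved the same way, at levels near the floor. The 19 genes summed to 0.204, 0.256 and 2.39 CPM of total counts in libraries A, B and D of 9G8-RNAi and to 2.02, 2.91 and 0.313 CPM in those of GFP-dsRNA, with 3 to 16 of them at 0. The gene fzo, a mitofusin of spermatids, was at 1.44 CPM in 9G8-RNAi replicate D and at 0.915 and 1.79 CPM in GFP-dsRNA replicates A and B. The part of these in the paralogue counts was not tested.

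**Figure D5:**
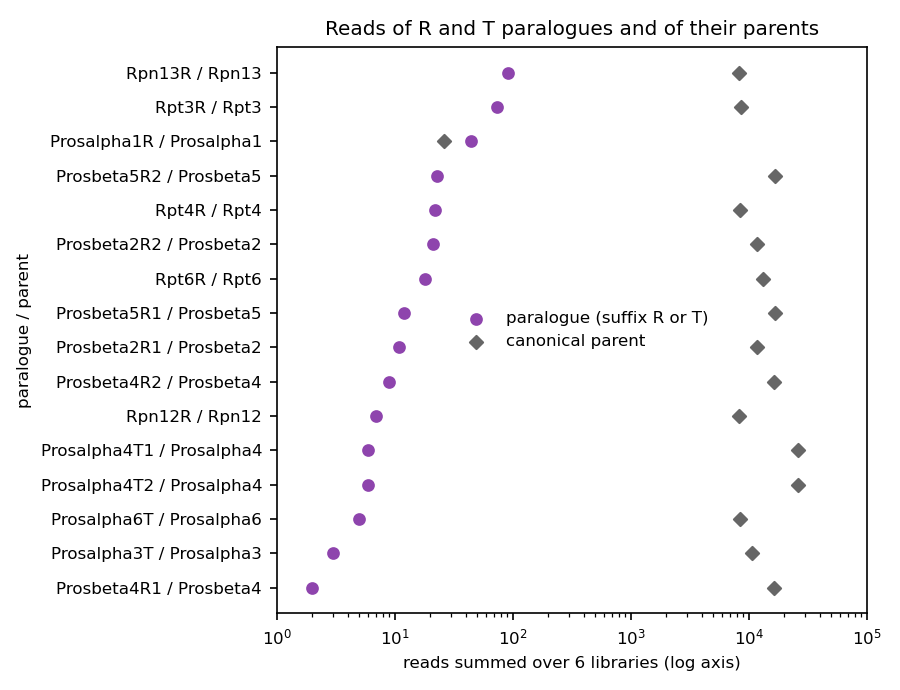
Reads summed over the 6 libraries for each R or T paralogue (circles) and its canonical parent (diamonds), on a log axis. The paralogues sum to 2 to 91 reads and the parents to 8255 or more, save Prosalpha1 with 26.

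Other genes of the ubiquitin and proteasome pathway were read from a list of 41 genes, of which 40 were tested. None passed over all genes (0 higher and 0 lower, edgeR), where 0.118% of all tested genes did. None had an unadjusted edgeR p under 0.05, where 4.53% of all tested genes did. DESeq2 called 0 of the list and 104 of the 9285 tested genes. With shares this small, a list of 40 genes without a call is no result about the list. The list had 19 genes above and 21 below 0, with a median log2 fold change of -0.034 against -0.065 over all tested genes. The smallest unadjusted p was that of Pomp, the maturation factor of the core particle. Pomp measured 334, 336 and 144 CPM in 9G8-RNAi, against 66.7, 138 and 207 CPM in GFP-dsRNA, a log2 fold change of 0.98 ± 0.52 (SE; edgeR adjusted p 0.918) and a 95% interval of -0.22 to 2.18. Its lowest and second lowest 9G8-RNAi values lay on either side of the highest control, so the groups overlapped. With total counts they did not, at 285, 285 and 168 CPM in 9G8-RNAi, against 112, 153 and 132 CPM in GFP-dsRNA. Next by p was sip3, a ubiquitin ligase of the endoplasmic reticulum, with 14.2, 10.3 and 16.1 CPM in 9G8-RNAi, against 15.9, 24.6 and 19.6 CPM in GFP-dsRNA. TER94, the segregase that extracts tagged proteins, measured 95.1, 53.2 and 81.5 CPM, against 83.0, 163 and 81.8 CPM, and its cofactor gene p47 21.9, 41.3 and 25.9 CPM, against 22.3, 46.6 and 78.5 CPM. In TER94, as in the base of the regulatory particle, GFP-dsRNA replicate B was the highest library. Their log2 fold changes were -0.56 ± 0.30, -0.51 ± 0.41 and -0.73 ± 0.48 (SE) for sip3, TER94 and p47, and each had an edgeR adjusted p of 0.918. Leaving out single libraries moved p47 between -1.11 (without GFP-dsRNA replicate A) and -0.12 (without GFP-dsRNA replicate D), and TER94 to -0.12 without GFP-dsRNA replicate B and -0.30 without 9G8-RNAi replicate B. With total counts the groups of p47, like those of Pomp, did not overlap, which makes 2 of the 40 genes (5.0%), against 4.08% of all tested genes.

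The transcription factor gene cnc, whose mammalian relative Nrf1 drives proteasome genes, measured 130.3, 69.4 and 128 CPM in 9G8-RNAi, against 97.8, 178 and 97.8 CPM in GFP-dsRNA. The groups overlapped, with a log2 fold change of -0.19 ± 0.41 (SE). Pngl, a peptide N-glycanase gene of the same group of regulators, was the 1 gene of the 40 whose groups did not overlap, at 15.5, 15.3 and 17.5 CPM in 9G8-RNAi, against 18.4, 18.7 and 18.0 CPM in GFP-dsRNA, and was named after its values were seen. That is 2.5% of the list, against 8.61% of all tested genes. Its log2 fold change was -0.19 ± 0.24 (SE; edgeR adjusted p 0.919). Of the assembly, activator and regulator genes other than Pomp, log2 fold changes were 0.019 for the regulator gene PI31, 0.064 for the lid component Sem1, 0.14 for CG12096 and 0.25 for the activator gene REG.

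Exons of 13 canonical members overlap those of another gene, always on the opposite strand, by at most 12.96% of the member's exon length for a single partner (Rpt6 with CG1801, which counted 20 reads or fewer). The strand setting of the counting is not given in the sources used here, so reads in these stretches may belong to either gene.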

How the data were processed

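PolyA-selected RNA was sequenced from 3 9G8-RNAi and 3 GFP-dsRNA samples, grouped by title. The authors deposited unnormalized read counts for each gene beside its summed exon length, per the file headers. The submitters' processing notes name Trimmomatic 0.36, STAR 2.5.2b, featureCounts from Subread 1.5.2 and the build BDGP6; no source used here states strand, multi-mapping settings or annotation release. Symbols came from Ensembl release 115, which held 17137 of the 17411 identifiers; 216 older ones were named by position (80% reciprocal overlap). All 48 members had the same start and end there.

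The main test was that of edgeR 4.0.16, run in R 4.3.3 (filterByExpr, TMM, robust quasi-likelihood test, Benjamini-Hochberg over all genes, threshold 0.05). The edgeR step was tested on simulated data. limma 3.58.1 and DESeq2 1.42.0 served as alternatives, beside other scalings, other filters, a replicate block and leaving out each library. Levels are TMM-scaled CPM unless stated. Median levels and counts of members are descriptions without a test. Total counts ran from 26216430 to 66562756, and the standard errors also hold the spread between the libraries of a group. No 2 libraries agreed within sampling noise (lowest chi-square over degrees of freedom 245.6).

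Members, lists and tests were chosen with earlier results of these data known. Values are given for catalytic subunits, the members highest or lowest per class in fold change or level, paralogues with 10 or more reads, members whose exons overlap another gene, and the 4 pathway genes with smallest p and cnc. Other genes were named after their values were seen.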

Additional observations from a re-analysis of the deposited data

How the results depend on the processing

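No member and no pathway gene passed under any alternative run. The count of all genes past the threshold, 11 in the edgeR fit reported, was 17 with total counts only, 50 with no low-count filter, 104 with DESeq2, 2 with limma-voom, 20 with the length trend removed (added after seeing the data) and 0 to 11 when single libraries were left out. With the replicate letters as a block it was 0. Whether the letters pair the samples is not stated. Same-letter deviations from the group means correlated at -0.018, -0.35 and -0.46. Those of unlike letters ran from -0.16 (9G8-RNAi replicate B with GFP-dsRNA replicate A) to 0.50 (9G8-RNAi replicate B with GFP-dsRNA replicate D). With 3 libraries a group, neither these values nor the replicate block can decide on pairing. Over single libraries left out, the core median ran from -0.035 to 0.60 and the regulatory median from -0.35 to 0.063, so both lost their sign without 1 library. The core to regulatory difference ran from 0.33 to 0.73, and x16 from -0.86 to 0.18.

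Among 18 member and pathway genes named by the rule, none of them called, the sign turned in 23 of 287 comparisons. The estimates furthest from 0 whose sign turned were those of Rpn13R (-0.95), Rpn2 (-0.49), Prosalpha5 (0.37), Prosbeta3 (0.25) and Rpt6 (-0.22). With total counts only, log2 fold changes were -0.29 for Prosalpha6, -0.18 for Prosbeta2, -0.13 for Prosbeta3 and -0.28 for Rpn12. With the length trend removed they were -0.25, -0.13, -0.060 and -0.21 for the same 4 genes and 0.075 for cnc. Prosalpha6 was at -0.016 with limma-voom and -0.028 with the block. Over single libraries left out, log2 fold changes ran from -0.0036 to 0.89 for Prosalpha5, -0.25 to 0.13 for Prosalpha6, -0.035 to 0.25 for Prosbeta2, -0.018 to 0.20 for Rpn12, -1.85 to 0.44 for Rpn13R, -0.71 to 0.12 for Rpn2, -0.27 to 0.14 for Rpt3, -0.34 to 0.13 for Rpt6 and -0.37 to 0.15 for cnc. Without a change of sign they ran from 0.050 to 1.02 for Prosbeta1, 0.090 to 0.81 for Prosbeta4, 0.081 to 0.60 for Prosbeta5, -0.50 to -0.034 for Rpn8, 0.62 to 1.503 for Pomp, -1.11 to -0.12 for p47 and -0.70 to -0.12 for TER94. Over the same libraries left out, Prosbeta3 (0.15 to 0.42) and sip3 (-0.74 to -0.39) kept their sign too. The causes were not tested. With 3 libraries a group, the 95% intervals of the catalytic subunit genes allow changes of up to 3.20-fold (Prosbeta1).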
